A study of Homo sapiens with 9 samples.

Results

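The mRNAs described here are those of the solute carriers, the large set of membrane proteins that move amino acids, sugars, ions, nucleotides, metals and metabolites across membranes. They were taken as the protein-coding genes whose symbol starts with SLC and a digit and whose estimated read counts reached 10 in at least 3 of the 9 samples. That rule kept 259 of the 373 SLC genes in the annotation, in 49 families. Of the 259, 43 belong to SLC25, the mitochondrial carriers, and 216 to the other families. The members make up 259 of the 16106 genes tested. Symbols alone decided membership, so SLC4A1AP, SLC2A4RG and SLC7A6OS were counted although they are not transporters, and SLC7A6OS overlaps the neighbouring carrier gene.

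The samples came from a human embryonic kidney line that the labels call HEK293 and the methods 293 T. Cells received either control siRNA or siRNAs against both WTAP and Virilizer (KIAA1429, now VIRMA), subunits of the complex that writes the m6A mark on mRNA, and RNA was extracted from nuclear and cytoplasmic fractions. The study compared the distribution of mRNA between the fractions with and without this complex. The 9 samples were 1 from the control cytoplasm (replicate 2), 2 from the cytoplasm after WTAP/KIAA1429 RNAi, 3 from control nuclei and 3 from nuclei after the RNAi, and other cytoplasmic samples were not analysed here. The control cytoplasmic values therefore have no replicate check, and every comparison that uses them rests on a single library. The labels do not say whether replicates were separate cultures, so p-values measure the spread between these samples only.

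Most solute carriers are made on ribosomes bound to the endoplasmic reticulum and travel through the secretory pathway to the plasma membrane, lysosomes or the Golgi. The SLC25 carriers differ: they are encoded in the nucleus, made in the cytosol and imported into the inner mitochondrial membrane, where they exchange ADP, ATP, phosphate, citrate and other metabolites. They therefore served as the contrast within the set. The m6A mark is deposited in the nucleus at a short consensus that includes GGACT, often near the stop codon.

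Both siRNA targets were lower in the RNAi samples, which checks the labels. WTAP stood at 37.4 CPM (counts scaled to library size after TMM normalisation) in the control cytoplasmic sample, 24.1, 27.6 and 23.0 in the control nuclear samples, 10.8 and 11.9 in the RNAi cytoplasmic samples and 12.2, 14.3 and 15.6 in the RNAi nuclear samples. VIRMA stood at 17.4, then 13.6, 13.2 and 19.8, then 4.2 and 4.04, and then 9.19, 5.57 and 6.98 CPM in the same order. In neither gene did the RNAi and control ranges overlap within a fraction. The nuclear log2 fold change was -0.83 (SE 0.13, adjusted p = 0.0168) for WTAP and -1.08 (SE 0.21, adjusted p = 0.0312) for VIRMA (quasi-likelihood test of edgeR, p-values adjusted by Benjamini-Hochberg, as for every adjusted p here). The nuclear RNAs MALAT1 and NEAT1 summed to 262 to 402 CPM in nuclei, against 27.9 CPM in the control cytoplasm and 13.6 to 14.9 CPM in the RNAi cytoplasm. The 13 mitochondrially encoded mRNAs were not depleted from nuclei. They took 26.2%, 15.4% and 22.1% of annotated counts in control nuclei and 11.6% in the control cytoplasm. After RNAi they took 24.8%, 16.0% and 19.0% in nuclei and 12.1% and 17.4% in the cytoplasm. The nuclear fractions thus held reads of mitochondrial genes too, and higher in the nucleus means higher in that fraction. Total estimated counts ranged from 11627403 to 19036141 per sample. Of 7 markers of the line, 6 were expressed and NEFL had no matched transcript, so its level is unknown. Among markers of other cells, ALB (liver) reached at most 1.0 count and PTPRC (leukocytes) at most 3.0. At least 1 of HBB and PECAM1 had no matched transcript either, so neither is read. COL1A1 lay at 12.3 to 17.7 TPM (abundance per transcript length, scaled to the same total in every sample).

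A member just passed the rule when the lowest of its 3 highest counts was 10 (SLC35F4, SLC39A5), 10.4 (SLC38A3) or 11.0 (SLC49A3, SLC34A2). Just outside were SLC17A9, whose value of 10 is rounded up from below the minimum, and SLC9A3, SLC47A2, SLC10A5 and SLC5A11, each at 9.0. Of the 114 genes that did not pass, 100 had no count of 10 or more in any sample and 24 were at 0 in all. The filter is not neutral between fractions, because 21 members reached 10 counts in nuclear samples only and none in cytoplasmic samples only. The 211 members with at least 10 counts in every sample, 40 of SLC25 and 171 of the others, are therefore counted separately in each comparison, while the substrate groups use the full set.

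Per length, the 3 most abundant members were mitochondrial carriers. SLC25A5, the main ADP/ATP translocase of dividing cells, averaged 736 TPM over the 9 samples, SLC25A6, a second ADP/ATP translocase, 623 TPM and SLC25A3, the phosphate carrier, 528 TPM. Outside SLC25 the most abundant were SLC1A5, a glutamine transporter, at 320.3 TPM, SLC7A5, the light chain of the large neutral amino acid exchanger, at 277 TPM, and SLC4A2, a chloride/bicarbonate exchanger, at 238 TPM. The median member averaged 5.51 TPM. SLC25A5, SLC25A6, SLC25A3 and SLC7A5 have processed pseudogenes or close relatives, among which salmon may divide reads.

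The 2 kinds of carrier took opposite shares of the fractions. Summed over its members, SLC25 made up 0.336% of all TPM in the control cytoplasmic sample and 0.24%, 0.275% and 0.245% in the control nuclear samples. After RNAi it made up 0.432% and 0.361% in the cytoplasm and 0.252%, 0.311% and 0.285% in the nucleus. The other SLC members made up 0.317% in the control cytoplasm against 0.495%, 0.528% and 0.494% in the control nuclei, and 0.374% and 0.32% in the RNAi cytoplasm against 0.461%, 0.535% and 0.516% in the RNAi nuclei. In each siRNA condition every cytoplasmic sample exceeded every nuclear sample for SLC25, and every nuclear sample exceeded every cytoplasmic sample for the other members. These sums weigh the most abundant members most. The median SLC25 member had 7.94 and 7.22 TPM in the RNAi cytoplasm against 9.36, 11.5 and 9.16 TPM in the RNAi nuclei. In control samples it had 9.05 TPM against 8.52, 9.26 and 10.2 TPM. The median CPM of SLC25 after RNAi was higher in the cytoplasm, at 17.9 and 20.5 against 14.6, 15.0 and 15.8. A share of the RNA in a fraction does not tell fewer cells from less RNA per cell, and it is relative to all other RNA in that fraction.

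**Figure D1:**
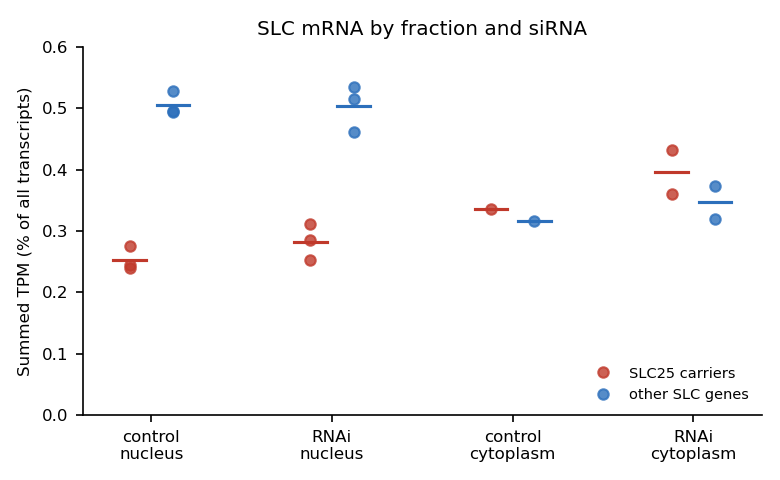
Share of all TPM (y axis, percent) taken by the 43 SLC25 members and by the 216 other SLC members in each of the 9 samples (x axis, grouped by siRNA and fraction), with 1 point per sample and a line at the mean of each group. SLC25 is higher in the 3 cytoplasmic samples (0.336% to 0.432%) than in the 6 nuclear samples (0.24% to 0.311%), and the other members are lower there (0.317% to 0.374% against 0.461% to 0.535%).

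The members that later results turn on differ widely in base composition, so the ends of 7 coding sequences are shown. Each line is the last 90 coding bases before the stop codon, on the sense strand, with G and C in capitals. They come from the most abundant protein-coding transcript in GENCODE 44 on GRCh37. The first 3 are members whose nuclear/cytoplasmic ratio fell after RNAi. They are SLC7A5 (chr16:87863629-87903113, minus strand), SLC3A2 (chr11:62623476-62656352, plus strand) and SLC25A6 (chrX:1505045-1511006, minus strand). Their whole transcripts hold 61.2%, 57.8% and 60.7% G and C.
SLC7A5: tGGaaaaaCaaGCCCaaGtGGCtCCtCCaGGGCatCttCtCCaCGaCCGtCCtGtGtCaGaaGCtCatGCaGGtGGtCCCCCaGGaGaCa
SLC3A2: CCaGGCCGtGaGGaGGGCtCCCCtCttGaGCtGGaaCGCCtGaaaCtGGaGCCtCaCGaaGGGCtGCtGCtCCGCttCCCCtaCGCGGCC
SLC25A6: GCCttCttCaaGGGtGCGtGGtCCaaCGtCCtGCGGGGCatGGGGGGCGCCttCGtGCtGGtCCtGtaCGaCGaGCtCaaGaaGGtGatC

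The other 4 are members whose ratio rose: SLC12A2 (chr5:127419458-127525369, plus strand), SLC25A36 (chr3:140660672-140699837, plus strand), SLC25A40 (chr7:87462883-87505675, minus strand) and SLC35A3 (chr1:100434907-100501190, plus strand). Their transcripts hold 42.6%, 37.4%, 34.3% and 38.6% G and C.
SLC12A2: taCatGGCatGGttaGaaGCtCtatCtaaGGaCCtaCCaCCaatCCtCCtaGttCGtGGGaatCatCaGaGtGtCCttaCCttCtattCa
SLC25A36: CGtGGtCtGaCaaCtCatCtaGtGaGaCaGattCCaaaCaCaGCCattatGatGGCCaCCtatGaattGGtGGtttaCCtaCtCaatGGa
SLC25A40: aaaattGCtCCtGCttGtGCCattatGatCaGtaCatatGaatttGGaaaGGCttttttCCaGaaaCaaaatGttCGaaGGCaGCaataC
SLC35A3: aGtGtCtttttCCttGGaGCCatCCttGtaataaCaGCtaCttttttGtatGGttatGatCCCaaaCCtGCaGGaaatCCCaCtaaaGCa

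None of the 7 windows holds GGACT. In the last 150 coding bases, searched on the sense strand, GGACT occurred in 43 of 244 members with a reading frame (17.6%) and in 16.4% of 12556 protein-coding genes. The share was 24.4% in SLC25 (10 of 41) and 16.3% in the other members. Over whole transcripts it was 93.4% of members and 87.7% of protein-coding genes. A match is a description of the letters only, and methylation was not measured in these samples.

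The comparison of nucleus and cytoplasm within RNAi cells is the only fraction comparison with replicates on both sides (3 against 2). Of the 259 members, 101 (39.0%) were higher in the nucleus and 39 (15.1%) higher in the cytoplasm (adjusted p under 0.1 and a log2 fold change beyond 0.5, the limits for all calls). Over all 16106 genes tested the shares were 32.8% and 25.0%, and over the 13431 protein-coding genes 26.8% and 28.4%. Within SLC25, 9 members (20.9%) were higher in the nucleus and 19 (44.2%) in the cytoplasm, with a median log2 fold change of -0.44. Of the other members, 92 (42.6%) were higher in the nucleus and 20 (9.26%) in the cytoplasm, with a median of 0.46, beside -0.11 over protein-coding genes. Among members with at least 10 counts in every sample the counts were 7 and 19 of 40 for SLC25 and 59 and 20 of 171 for the others, beside 20.9% and 33.0% of 11405 protein-coding genes. The medians were then -0.47 in SLC25, 0.21 in the others and -0.22 over protein-coding genes. All 3 RNAi nuclear samples lay above both RNAi cytoplasmic samples in 126 of the 216 other members (58.3%) and in 10 of 43 SLC25 members (23.3%), beside 34.4% of protein-coding genes. They lay below both in 39 (18.1%), 24 (55.8%) and 41.5%.

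**Figure D2:**
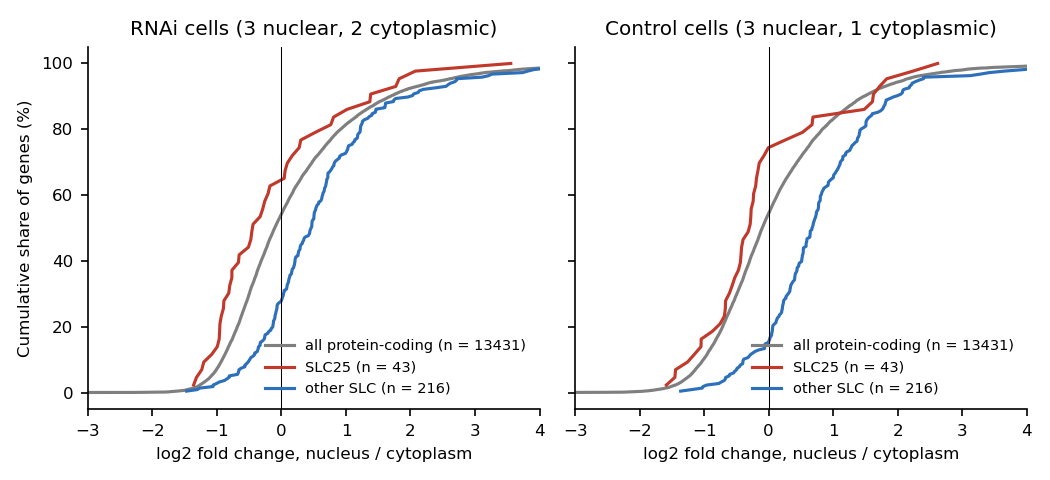
Cumulative share of genes (y axis, percent) by log2 fold change of nucleus against cytoplasm (x axis, cropped to show -3 to 4) for SLC25 members, other SLC members and protein-coding genes, in RNAi cells (left) and control cells (right). The median of SLC25 is -0.44 in RNAi cells and -0.29 in control cells, and that of the other members 0.46 and 0.68, beside -0.11 and -0.10 for protein-coding genes, and the control comparison rests on 1 cytoplasmic library. With 10 counts in every sample the medians are -0.47 and -0.36, 0.21 and 0.54, and -0.22 and -0.18 in the same order.

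The 3 most abundant mitochondrial carriers were higher in the cytoplasm. SLC25A5 stood at 1398 and 1242 CPM in the RNAi cytoplasm and at 648, 732 and 694 CPM in the RNAi nuclei, a log2 fold change of -0.93 (SE 0.11, adjusted p = 5.98e-05). SLC25A6 stood at 1912 and 1654 CPM against 820.4, 783 and 718 CPM, a log2 fold change of -1.20 (SE 0.11, adjusted p = 1.1e-05). SLC25A3 stood at 741 and 854 CPM against 419, 496 and 489 CPM (log2 fold change -0.77, SE 0.11, adjusted p = 0.000176). In all 3 genes every cytoplasmic sample was above every nuclear sample.

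SLC25A39, which takes glutathione into mitochondria, stood at 623 and 705 CPM against 236, 276 and 262 CPM (log2 fold change -1.36, SE 0.11, adjusted p = 7.34e-06). SLC25A23, a calcium-regulated ATP-Mg/phosphate carrier, stood at 954 and 868 CPM against 352, 379 and 366 CPM (-1.32, SE 0.09, adjusted p = 3.16e-06). The citrate carrier SLC25A1 (-0.90, SE 0.10, adjusted p = 5e-05) and the oxoglutarate carrier SLC25A11 (-0.80, SE 0.10, adjusted p = 6.68e-05) were also higher in the cytoplasm.

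SLC25 did not move as a block. SLC25A36, a pyrimidine nucleotide carrier, and SLC25A37 (mitoferrin-1), an iron importer, were higher in the nucleus. SLC25A37 stood at 24.8 and 24.5 CPM in the RNAi cytoplasm and at 71.7, 63.6 and 57.5 CPM in the RNAi nuclei (log2 fold change 1.38, SE 0.13, adjusted p = 1.54e-05). SLC25A36 stood at 12.5 and 15.9 CPM against 40.6, 31.8 and 36.9 CPM (1.37, SE 0.17, adjusted p = 9.82e-05). In both genes every nuclear sample was above every cytoplasmic sample. SLC25A28 (mitoferrin-2) was called at a log2 fold change of 0.52 (SE 0.15, adjusted p = 0.01), a call lost without RNAi cytoplasmic replicate 1 or RNAi nuclear replicate 1.

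Genes encoding the mitochondrial import machinery, which also are made in the cytosol, showed no member higher in the nucleus. Of 27 tested, 17 were higher in the cytoplasm and 0 in the nucleus, with a median of -0.58, and TIMM9 (-1.46), TOMM6 (-1.13) and TOMM22 (-1.03) had the largest differences. Of 4 tested SLC25 family genes with other symbols, MTCH2 (-0.94) and UCP2 (-1.39) were among the 3 higher in the cytoplasm and UCP3, at 0.0 and 0.437 CPM in the RNAi cytoplasm and 3.83, 4.27 and 2.83 CPM in the RNAi nuclei, was higher in the nucleus. ABC transporters, the ATP-driven pumps of the same membranes as many solute carriers, had 11 of 20 members higher in the nucleus and 1 in the cytoplasm, with a median of 0.92. ABCA5 stood at 0.7 and 0.655 CPM in the RNAi cytoplasm and at 6.47, 6.77 and 7.2 CPM in the RNAi nuclei (log2 fold change 3.30, SE 0.27, adjusted p = 6.92e-06). Genes for targeting and insertion of proteins at the endoplasmic reticulum gave 10 higher in the nucleus (31.2%) and 7 in the cytoplasm (21.9%) of 32. P-type and V-type ATPases gave 7 (30.4%) and 9 (39.1%) of 23. All these counts are to be read against 26.8% and 28.4% over protein-coding genes, and the nuclear shares of these last 2 lists lay near it. These lists give counts only and were not compared with each other by a test.

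By substrate, amino acid and ion transporters had the largest shares of nuclear members, to be read against 26.8% higher in the nucleus and 28.4% in the cytoplasm over protein-coding genes. The groups include members that reached 10 counts in nuclear samples only, whose direction the filter fixed, and were not recounted without them. Outside SLC25 the nuclear share was 42.6% in the full set and 34.5% with 10 counts in every sample, where protein-coding genes had 20.9%. Of 42 amino acid and peptide transporters, 25 (59.5%) were higher in the nucleus and 2 in the cytoplasm (median 0.63). Of 38 ion transporters, 20 (52.6%) were higher in the nucleus and 0 in the cytoplasm (median 0.68). Sugar and carboxylate transporters gave 14 and 4 of 37 (median 0.33), vitamin, nucleoside and lipid transporters 12 and 6 of 29 (0.35), and vesicular and organic ion transporters 7 and 1 of 16 (0.19). Metal transporters gave 8 (27.6%) and 2 of 29 (0.04). Nucleotide sugar and acetyl-CoA transporters, which sit in the Golgi and endoplasmic reticulum, gave 6 and 5 of 25 (0.03), and within them the SLC35 family gave 5 and 5 of 24. The nuclear shares of these last 2 groups lay near that of protein-coding genes. In the SLC22 family of organic ion transporters 6 of 8 were higher in the nucleus and 0 in the cytoplasm.

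**Figure D3:**
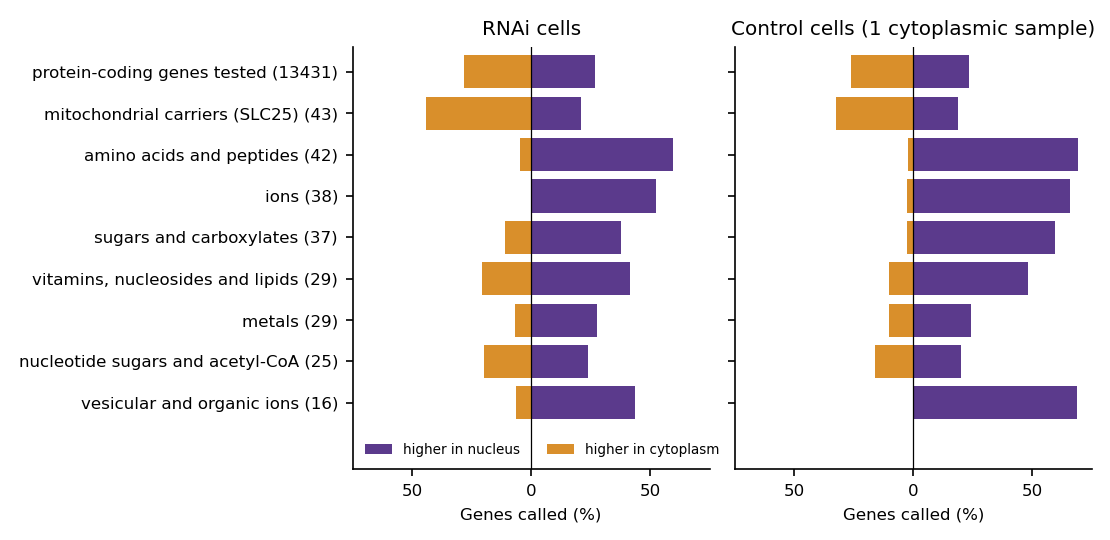
Share of genes called (x axis, percent) higher in the nucleus (bars to the right of 0) or in the cytoplasm (bars to the left) by substrate group (y axis, number of genes in brackets), in RNAi cells (left) and in control cells with 1 cytoplasmic sample (right). In RNAi cells 20 of 38 ion transporters and 25 of 42 amino acid transporters were higher in the nucleus, while 19 of 43 mitochondrial carriers were higher in the cytoplasm. The groups use the full set, with members that reached the count minimum in nuclear samples only.

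Among the amino acid transporters, SLC3A2 is the heavy chain that brings SLC7A5 and several relatives to the plasma membrane, and the pair is given side by side. SLC3A2 stood at 108 and 127 CPM in the RNAi cytoplasm and at 270.4, 286 and 277 CPM in the RNAi nuclei (log2 fold change 1.24, SE 0.11, adjusted p = 1.15e-05). SLC7A5 stood at 1593 and 1367 CPM against 1192, 1277 and 1241 CPM, a log2 fold change of -0.26 (SE 0.12, adjusted p = 0.0899) that was not past the fold limit. The cytoplasmic values were thus the lower ones for SLC3A2 and the higher ones for SLC7A5. SLC38A2, a sodium-coupled neutral amino acid transporter, stood at 65.1 and 44.9 CPM against 146, 123 and 126 CPM (1.26, SE 0.24, adjusted p = 0.00134). SLC7A11, the cystine/glutamate exchanger, had a log2 fold change of 1.22 (SE 0.34, adjusted p = 0.0104), SLC1A5 one of 0.63 (SE 0.10, adjusted p = 0.000471), SLC1A4 one of 0.58 (SE 0.18, adjusted p = 0.0192) and SLC38A1 one of 0.58 (SE 0.22, adjusted p = 0.0421). The arginine transporter SLC7A1 gave 0.21 (SE 0.20, adjusted p = 0.393), not past the threshold. The calls of SLC1A4 and SLC38A1 were each lost in some fits that left out 1 sample: SLC1A4 without RNAi cytoplasmic or nuclear replicate 1, SLC38A1 without RNAi cytoplasmic replicate 2.

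SLC2A1, SLC16A1 and SLC29A1, which carry fuels and nucleosides, were higher in the nucleus as well. SLC2A1, the widely expressed glucose transporter, stood at 80.9 and 78.1 CPM in the RNAi cytoplasm and at 175, 201 and 181 CPM in the RNAi nuclei (log2 fold change 1.22, SE 0.11, adjusted p = 1.3e-05). SLC16A1, a lactate and pyruvate transporter, stood at 143 and 121 CPM against 282, 257 and 262 CPM (1.02, SE 0.13, adjusted p = 9.5e-05). SLC29A1, which equilibrates nucleosides, stood at 146 and 156 CPM against 224, 256 and 246 CPM (0.68, SE 0.10, adjusted p = 0.000299). No nuclear sample of these 3 genes overlapped a cytoplasmic sample. SLC29A4, a relative of SLC29A1 that carries monoamines, lay on the other side, with 108 and 102 CPM in the cytoplasm and 45.8, 41.6 and 43.8 CPM in the nuclei (-1.27, SE 0.09, adjusted p = 4.16e-06). SLC52A2, a riboflavin transporter, was also higher in the cytoplasm (-1.31, SE 0.29, adjusted p = 0.00306). SLC2A4RG, a regulator of the SLC2A4 gene and not a transporter, had the lowest value of any called member (-1.47, SE 0.10, adjusted p = 3.33e-06).

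Of the ion and metal transporters with known roles, SLC12A2, the sodium-potassium-chloride cotransporter, stood at 5.14 and 4.59 CPM in the RNAi cytoplasm and at 12.8, 12 and 13.9 CPM in the RNAi nuclei (log2 fold change 1.40, SE 0.19, adjusted p = 0.000147). SLC4A7, a sodium bicarbonate cotransporter, stood at 3.89 and 2.84 CPM against 17.0, 14.3 and 15.8 CPM (2.20, SE 0.18, adjusted p = 7.06e-06). Their nuclear samples did not overlap the cytoplasmic ones. The phosphate transporter SLC20A1 (0.48), the zinc exporter SLC30A1 (0.04), the zinc importer SLC39A6 (0.44) and the bicarbonate exchanger SLC4A2 (0.29) did not pass both limits. SLC16A3, a lactate transporter, was called at 0.82 (SE 0.31, adjusted p = 0.0382) from levels of 1.97 to 4.22 CPM, a call lost without RNAi cytoplasmic replicate 1 or 2 or RNAi nuclear replicate 1 or 3.

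Some members had hardly any reads in the RNAi cytoplasm and are given as bounds or counts. SLC9A4, SLC35F4, SLC23A1 and SLC7A14 reached 10 counts in nuclear samples only, so the filter fixed their direction and their values are a description. SLC9A4, a sodium/proton exchanger, had 0 counts in both RNAi cytoplasmic samples and 19.5, 23.0 and 13.4 in the RNAi nuclei, at least 5.23-fold higher against a floor of 3 counts per library. SLC35F4 had 0 counts against 19, 10 and 11, at least 3.63-fold higher. SLC35E2B had 0.4 and 1.6 counts against 190.5, 103.4 and 116.1, but it shares nearly all of its sequence with SLC35E2A, and salmon's division of reads between them is uncertain. SLC23A1, an ascorbate transporter, had 1 and 0 counts against 13, 8 and 16. SLC7A14, a lysosomal member of the amino acid transporter family, had 1.5 and 1.2 counts against 19.5, 20.5 and 16.8.

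In control cells the same comparison set 3 nuclear samples against the single cytoplasmic one, and its spread came from the other groups. Of the 259 members, 121 (46.7%) were higher in the nucleus and 27 (10.4%) in the cytoplasm, beside 28.1% and 22.7% of all genes and 23.3% and 26.4% of protein-coding genes. SLC25 gave 8 and 14 of 43 (median -0.29) and the other members 113 and 13 of 216 (median 0.68). With 10 counts in every sample the counts were 6 and 14 of 40 and 86 and 13 of 171, beside 20.2% and 30.0% of protein-coding genes. The medians were then -0.36 in SLC25, 0.54 in the others and -0.18 over protein-coding genes. In the full set, amino acid transporters gave 29 and 1 of 42 and ion transporters 25 and 1 of 38. Sugar and carboxylate transporters gave 22 and 1 of 37, and vesicular and organic ion transporters 11 and 0 of 16. The mitochondrial import list gave 0 higher in the nucleus and 13 in the cytoplasm, and the ABC transporters 13 and 3.

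SLC3A2 stood at 64.4 CPM in the control cytoplasm and at 318, 275 and 285 CPM in the control nuclei (log2 fold change 2.19, SE 0.15, adjusted p = 1.47e-05). SLC2A1 stood at 59.6 CPM against 264, 224 and 230.1 CPM (2.01, SE 0.15, adjusted p = 1.84e-05), and SLC7A3, an arginine transporter, at 6.38 against 73.3, 37.1 and 57.0 CPM (3.13, SE 0.39, adjusted p = 0.00018). SLC25A46 (-1.59), SLC25A40 (-1.45), SLC25A24 (-1.44), the zinc transporter family gene SLC30A9 (-1.36) and SLC25A23 (-1.26) were the most cytoplasmic of the called members whose sign held with each sample left out. These values carry the trend of the control cytoplasmic library with G and C content (Spearman correlation -0.45 over 11084 genes). SLC22A31, an organic anion transporter family member, had 4 counts in the control cytoplasm and 48, 61 and 49 in the control nuclei. SLC5A2, the kidney sodium/glucose cotransporter, had 0 counts against 13.2, 10.1 and 12.1, at least 4.83-fold higher, SLC34A2 0 against 10.1, 11.0 and 4.0, at least 3.28-fold higher, and SLC35F4 0 against 10, 6 and 5, at least 2.82-fold higher. SLC34A2 and SLC35F4 reached 10 counts in nuclear samples only, so their direction too was fixed by the filter.

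**Figure D4:**
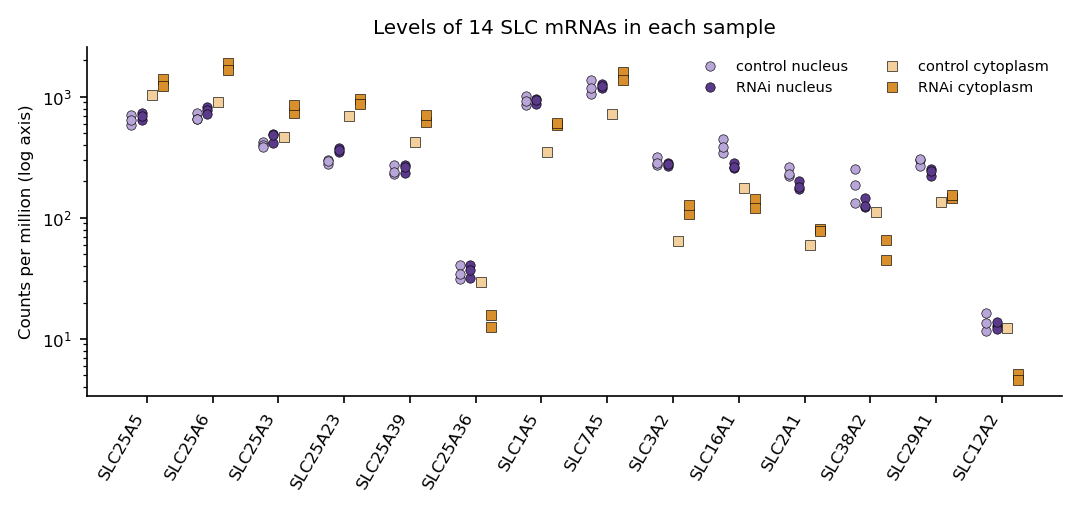
Levels of 14 named members (x axis) in each of the 9 samples (y axis, CPM after TMM normalisation, log scale), with circles for nuclear and squares for cytoplasmic samples, pale for control and dark for RNAi. SLC3A2 lies at 64.4 to 127 CPM in the cytoplasmic samples and at 270.4 to 318 CPM in the nuclear samples, and SLC25A6 at 900.4 to 1912 CPM and 657 to 820.4 CPM.

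Within the nucleus, RNAi changed few members. Of 259, 1 rose (0.386%) and 5 fell (1.93%), beside 2.48% and 2.43% of all genes and 2.14% and 2.60% of protein-coding genes. At an unadjusted p under 0.05 there were 55 members in all, 6 of them in SLC25, where none passed the adjusted threshold. Over all 16106 genes there were 3360 at that level, 2871 of them among the 13431 protein-coding genes, a share near that of the members. DESeq2's Wald test gave 0 rises and 4 falls over all members. With 10 counts in every sample, 1 rose and 5 fell of the 171 outside SLC25 and none of the 40 of SLC25, beside 2.01% and 2.83% of protein-coding genes. SLC2A4, the insulin-responsive glucose transporter, fell from 20.3, 15.9 and 17.5 CPM to 10.5, 11.1 and 9.89 CPM (log2 fold change -0.77, SE 0.14, adjusted p = 0.0295). SLC16A1 fell from 445, 342 and 385 CPM to 282, 257 and 262 CPM (-0.55, SE 0.11, adjusted p = 0.0339). The RNAi and control nuclear samples did not overlap in either gene. SLC7A10, an amino acid exchanger (-0.67), SLC18B1, a vesicular polyamine transporter (-0.53), and SLC2A11, a sugar transporter (-0.53), also fell, and SLC6A16, an orphan of the neurotransmitter transporter family, rose (0.60). Each of these 6 calls was lost in at least 1 fit that left out a sample, and with no control nuclear replicate 3 or no RNAi nuclear replicate 2 or 3, 0 members fell.

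In the cytoplasm, 2 RNAi samples were set against the single control one. There, 59 members rose (22.8%) and 24 fell (9.27%), beside 10.4% and 14.3% of all genes and 11.9% and 15.9% of protein-coding genes. With library sizes alone in place of TMM the counts were 22 and 38, beside 430 and 3198 of all 16106 genes. Which direction held more members thus depends on the scaling, and the counts are to be read beside those of all genes. SLC25 gave 6 and 4 and the other members 53 and 20. With 10 counts in every sample these were 6 and 4 of 40 and 50 and 16 of 171, beside 13.6% and 16.1% of protein-coding genes. Among amino acid transporters 16 rose and 3 fell, and among sugar and carboxylate transporters 8 rose and 0 fell. SLC7A5 rose from 726 CPM to 1593 and 1367 CPM (log2 fold change 1.03, SE 0.17, adjusted p = 0.00403), SLC3A2 from 64.4 to 108 and 127 CPM (0.87, SE 0.15, adjusted p = 0.00426), and SLC1A5 from 349 to 586 and 610.4 CPM (0.78, SE 0.14, adjusted p = 0.0051). SLC25A6 rose from 900.4 to 1912 and 1654 CPM (0.99, SE 0.15, adjusted p = 0.00274) and SLC25A28 from 10.9 to 24.5 and 29.9 CPM (1.32, SE 0.21, adjusted p = 0.00329). Each RNAi sample of these 5 genes was above the control sample, as in 42.2% of protein-coding genes. SLC8A2, a sodium/calcium exchanger, rose from 1.15 to 4.59 and 4.59 CPM (1.98, SE 0.37, adjusted p = 0.00539). The call of SLC1A5 was lost with an offset for G and C content, described below.

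Other members fell in the cytoplasm. SLC4A7 fell from 11.1 to 3.89 and 2.84 CPM (log2 fold change -1.69, SE 0.22, adjusted p = 0.00132), SLC12A2 from 12.3 to 5.14 and 4.59 CPM (-1.34, SE 0.23, adjusted p = 0.00449), and SLC25A36 from 29.8 to 12.5 and 15.9 CPM (-1.08, SE 0.22, adjusted p = 0.00793). SLC38A2 fell from 112 to 65.1 and 44.9 CPM (-1.02, SE 0.31, adjusted p = 0.0399), a call lost without RNAi cytoplasmic replicate 2. SLC35A3, which carries UDP-N-acetylglucosamine into the Golgi, fell from 3.46 to 1.09 and 1.42 CPM (-1.48, SE 0.34, adjusted p = 0.0136). With an offset for G and C content, described below, the calls of SLC25A36, SLC38A2 and SLC35A3 were lost.

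The change of the nuclear/cytoplasmic ratio, the comparison the study was designed around, combines both fractions and so also leans on the single control cytoplasmic library. The ratio rose in 11 members (4.25%) and fell in 52 (20.1%), beside 10.4% and 7.92% of all genes and 11.4% and 9.16% of protein-coding genes. With library sizes alone it rose in 21 and fell in 15, beside 2240 and 164 of all 16106 genes. SLC25 gave 3 and 8 of 43 (median -0.09) and the other members 8 and 44 of 216 (median -0.27). With 10 counts in every sample it rose and fell in 3 and 8 of 40 and in 6 and 42 of 171, beside 11.3% and 10.5% of protein-coding genes. Amino acid transporters gave 1 and 12, sugar and carboxylate transporters 1 and 9, ion transporters 3 and 6, vitamin, nucleoside and lipid transporters 0 and 6, metal transporters 1 and 5, vesicular and organic ion transporters 0 and 4, and nucleotide sugar transporters 2 and 2. SLC7A5 fell by 1.0 on the log2 scale (SE 0.20, adjusted p = 0.0142), SLC3A2 by 0.94 (SE 0.18, adjusted p = 0.00996), SLC1A5 by 0.78 (SE 0.17, adjusted p = 0.0167), SLC2A1 by 0.78 (SE 0.18, adjusted p = 0.0203) and SLC25A6 by 0.81 (SE 0.18, adjusted p = 0.0186). SLC4A7 rose by 1.55 (SE 0.25, adjusted p = 0.00661), SLC12A2 by 1.23 (SE 0.28, adjusted p = 0.0212), SLC25A46, an outer mitochondrial membrane protein of the family, by 1.41 (SE 0.25, adjusted p = 0.00881) and SLC25A36 by 1.11 (SE 0.26, adjusted p = 0.0241). The ratio of SLC2A4 fell by 1.27 (SE 0.28, adjusted p = 0.0201), where its level fell in the nucleus and its cytoplasmic change of 0.50 (SE 0.24, adjusted p = 0.172) did not pass.

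The ratio moved with base composition. Transcripts of the 50 members with a lower ratio and a known composition held a median of 58.1% G and C, and those of the 9 with a higher ratio 38.6%, beside 59.2% and 40.2% for protein-coding genes called in the same directions. Across members the Spearman correlation of the ratio change with G and C content was -0.56 (n = 244 genes, which share the same 9 libraries and are not independent), -0.72 in SLC25 (n = 41), -0.54 in the other members (n = 203) and -0.60 over 12556 protein-coding genes. The nucleus against cytoplasm difference in RNAi cells had a correlation of only -0.14 over members. The level of the control cytoplasmic library, relative to the mean of all samples, correlated with G and C content at -0.45 over 11084 genes, against 0.19 and 0.32 in the RNAi cytoplasmic libraries and -0.13 to 0.09 in the nuclear libraries. With 1 control cytoplasmic library, this trend and the siRNA condition cannot be told apart.

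**Figure D5:**
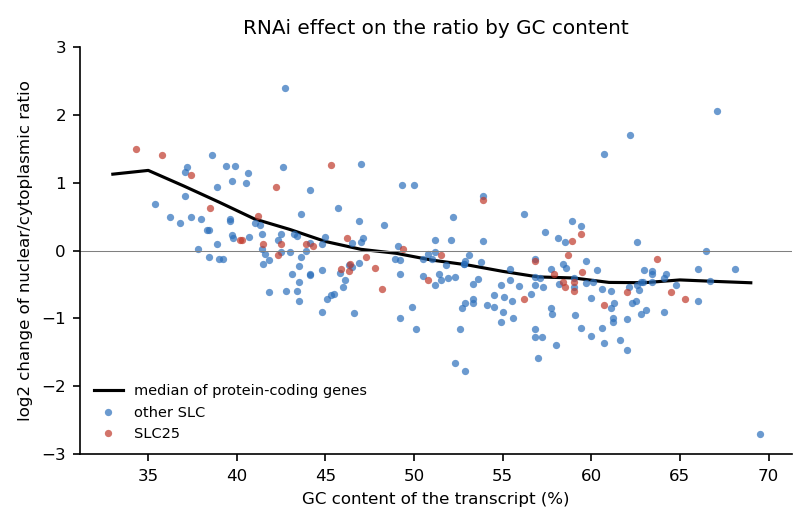
Change of the nuclear/cytoplasmic ratio after RNAi (y axis, log2) against G and C content of the most abundant protein-coding transcript (x axis, percent). Members with a known composition are shown, SLC25 in red and the others in blue, with a black line at the median of protein-coding genes. The ratio is lower in members rich in G and C, with Spearman correlations of -0.72 for SLC25 and -0.54 for the others, and 4 members lie beyond the y axis limits of 3.

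Protein-coding genes were also divided into 3 classes of equal size, with limits at 45.6% and 55.5% G and C. In the class richest in G and C the ratio fell in 35 of 91 members (38.5%), beside 21.0% of all protein-coding genes of that class. In the middle class it fell in 14 of 74 (18.9%), beside 6.28%, and in the poorest class in 1 of 79, beside 0.55%. In the poorest class it rose in 8 of 79 (10.1%), beside 28.4%. An offset for G and C content, chosen after seeing the data, left 0 members with a higher ratio and 12 with a lower ratio among the 244, where the uncorrected fit gave 9 and 50. The shares over protein-coding genes were then 4.12% and 2.23%. Of the 12, 7 were lower without the offset too: SLC2A1, SLC3A2, SLC39A9, SLC41A3, SLC44A2, SLC47A1 and SLC7A8. With the same offset 29 members (11.9%) rose and 6 (2.46%) fell in the cytoplasm, beside 4.63% and 5.82% of protein-coding genes. The nucleus against cytoplasm counts in RNAi cells were 111 and 33 with it, 7 and 20 in SLC25 and 104 and 13 in the other members, beside 28.8% and 20.6% of protein-coding genes.

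Members also differ from other mRNAs in length. The median coding length was 942 bases in SLC25, 1527 in the other members and 1230 over protein-coding genes, and the median transcript length 2507, 3277 and 2700 bases. Over members, coding length had a Spearman correlation of 0.30 with the nucleus against cytoplasm difference in RNAi cells (n = 244 genes), a description across genes of the same libraries. It was -0.25 in SLC25 (n = 41), 0.30 in the other members (n = 203) and 0.26 over 12556 protein-coding genes. The most abundant protein-coding transcript had a median of 8 exons, untranslated ones included, in SLC25 and 10 in the other members, beside 8 over protein-coding genes.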

How the data were processed

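RNA of nuclear and cytoplasmic fractions was sequenced from libraries made with the Lexogen SENSE mRNA kit. The authors cut a fixed number of bases from the reads with cutadapt before salmon was run on hg19 transcripts, and the salmon version is not given in the sources used here. The deposited estimated counts, given per transcript, were not normalised between samples. The deposited TPM values are divided by effective length and scaled to the same total. Transcript lengths, deposited beside them, served for the length offset.

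The 215170 transcripts were matched to GENCODE 44 on GRCh37, which covered 183122 of them (85.1%), 56347 genes and 83.07% to 88.31% of the counts per sample. Counts were summed per gene, rounded to whole numbers and kept at 10 or more in at least 3 samples. At these depths 3 counts equal 0.19 to 0.303 CPM, for counting error only. edgeR 4.0.16 in R 4.3.3 (quasi-likelihood test, TMM, 4 groups, no replicate block, Benjamini-Hochberg adjustment over 16106 genes) tested 5 contrasts. All groups shared one spread, with 5 residual degrees of freedom. Calls needed an adjusted p under 0.1 and a log2 fold change beyond 0.5. The script was tested on simulated data. Replicates of a group differed by more than sampling noise and counted separately. Python 3.11.15 and pandas 2.3.3 made the summaries. The substrate groups and comparison lists were written by hand.

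The members, lists and rules were chosen with earlier results of these data known. Named were, per contrast, up to 5 called members with the largest change in each direction whose sign held with each sample left out, the 3 most abundant in and outside SLC25, and a fixed list of well-known transporters. Genes named outside this rule, such as those just inside or outside the count minimum, the non-transporters and the 7 members lower with and without the offset for G and C, were chosen after their values were seen. The alternatives were DESeq2 1.42.0 size factors and Wald test, library size only, no filter, 10 counts in every sample, a length offset and a replicate block. Each sample was also left out in turn. Without the single control cytoplasmic sample, only the comparisons that do not use it were fitted. An offset for G and C was added after seeing the data.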

Additional observations from a re-analysis of the deposited data

Results flagged for a closer look

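The RNAi effect differed between the nucleus and the cytoplasm, by the test of the interaction of siRNA and fraction (quasi-likelihood test of edgeR, adjusted by Benjamini-Hochberg), for 29 of the named members. Each value is the nuclear log2 fold change minus the cytoplasmic one, and all rest on the single control cytoplasmic library. The effect was higher in the nucleus for SLC4A7 (1.55), SLC25A40 (1.5), SLC25A46 (1.41), SLC35A3 (1.41), SLC12A2 (1.23), SLC25A36 (1.11) and SLC30A9 (0.93). These are ion, nucleotide sugar, zinc and mitochondrial carriers, and all 7 have RNAi cytoplasmic levels below the control one. The cytoplasmic change is part of the value that selected them, so this is a description. Both RNAi cytoplasmic samples lay below the control one in 39.8% of protein-coding genes.

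The effect was lower in the nucleus for the amino acid transporters SLC7A3 (-1.66), SLC7A10 (-1.36), SLC1A4 (-1.16), SLC7A5 (-1.0), SLC3A2 (-0.94) and SLC1A5 (-0.78). It was lower for the mitochondrial carriers SLC25A28 (-1.08), SLC25A6 (-0.81), SLC25A39 (-0.61), SLC25A1 (-0.61), SLC25A3 (-0.57) and SLC25A11 (-0.53). It was also lower for the remaining members SLC37A4 (-1.59), SLC8A2 (-1.46), SLC2A4 (-1.27), SLC2A1 (-0.78), SLC29A4 (-0.74) and SLC2A4RG (-0.51). Both RNAi cytoplasmic samples of the members named in this paragraph stood above the control one, as in 42.2% of protein-coding genes. The selection by the same value largely fixed this too.

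For 4 further members 1 group holds hardly any reads, and the fitted values depend on the prior count and are no bounds. They are SLC35E2B (5.89), SLC9A4 (5.07), SLC5A2 (-5.81) and SLC22A31 (-2.71). SLC35E2B shares its reads with a near-identical neighbour gene, SLC9A4 had 0 counts in both RNAi cytoplasmic samples, SLC5A2 0 counts in the control cytoplasm and 11.1 and 1.0 in the RNAi cytoplasm, and SLC22A31 4 counts in the control cytoplasm.

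Many of these calls did not hold in other settings. The interaction call was lost in at least 1 fit that left out a sample for SLC25A1, SLC25A3, SLC25A11, SLC25A39, SLC25A40, SLC1A4, SLC2A4RG, SLC5A2, SLC7A3, SLC8A2, SLC9A4, SLC35A3 and SLC37A4, and with the replicate block for SLC2A4RG and SLC5A2. With the offset for G and C, every call named above was lost but those of SLC2A1 and SLC3A2, and SLC4A7, SLC25A28 and SLC35E2B had no value there. With library size only, the calls of SLC2A1 and SLC25A28 were lost too, with those of 10 others named above. SLC2A4RG lost its call in 12 settings and SLC25A3, SLC25A11, SLC5A2 and SLC9A4 in 9 each.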

How the results depend on the processing

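Over all settings, the counts of calls of nucleus against cytoplasm stayed within 1.5 times their main values in 130 cases and fell below in 4. Those of RNAi against control stayed within that range in 62, rose above it in 8 and fell below it in 28. Of single-gene results 4247 kept their direction and side of the threshold, 100 gained a call, 248 lost one and 4 changed sign. Where values moved, the cause was not tested.

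With library size only, the median of all genes shifted from 0.03 to 0.30 in nucleus against cytoplasm in RNAi cells, from 0.01 to -0.24 in the cytoplasm and from -0.05 to 0.23 in the ratio. The limits for calls were not moved with these shifts, so the counts of calls carry them. With library size only, 24 members and 10 outside SLC25 were higher in the RNAi cytoplasm than in the nucleus, and 2 members fell in the nucleus. In the cytoplasm 22 rose and 38 fell, and the ratio rose in 21 and fell in 15. The medians changed sign, to -0.03 (SLC25) and -0.01 (others) in the cytoplasm and 0.18 and 0.02 in the ratio. With no filter, 0 members rose and 14 fell in the nucleus. With 10 counts in every sample, 11 outside SLC25 were higher in the cytoplasm of RNAi cells. With the length offset, 3 rose and 1 fell in the nucleus, 37 rose in the cytoplasm and the ratio fell in 30. DESeq2's Wald test gave 0 rises in the nucleus and a higher ratio in 7. The offset for G and C, chosen after seeing the data, gave 13 outside SLC25 higher in the cytoplasm of RNAi cells, 0 rises in the nucleus, 29 rises and 6 falls in the cytoplasm, and a ratio higher in 0 and lower in 12. It changed the sign of the cytoplasmic change of SLC25A46 (0.08), SLC25A40 (0.21), SLC25A24 (0.16) and SLC30A9 (0.14).

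Replicate numbers were not taken to pair samples. The deviations of same-numbered samples from their group means correlated at 0.267, 0.141 and 0.071 between the nuclear groups, at 0.287 and 0.278 between control nuclear and RNAi cytoplasmic samples and at 0.179 and 0.07 between the RNAi groups. Those of differently numbered samples ran from -0.287 to 0.12, most of them below 0. Among control nuclear samples, RNAi nuclear replicate 3 correlated best with replicate 2 (0.106), and among RNAi cytoplasmic ones with replicate 2 (0.12). What the numbers stand for was not tested. With the replicate block the ratio rose in 18 members, and no other count of members moved by over 1.5 times. Over all genes the ratio then rose in 2125 and fell in 1921, beside 1681 and 1276 without the block.

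With each sample left out, the counts ranged over 86 to 111 (nucleus) and 33 to 41 (cytoplasm) for RNAi cells, 8 to 9 and 17 to 20 in SLC25, 77 to 102 and 16 to 22 in the others, and 110 to 134 and 26 to 31 for control cells. In the nucleus 0 to 2 rose and 0 to 14 fell: 14 without control nuclear replicate 2, 2 without RNAi nuclear replicate 1, and 0 without control nuclear replicate 3, RNAi nuclear replicate 2 or RNAi nuclear replicate 3. In the cytoplasm 38 (without control nuclear replicate 3) to 60 rose and 15 (without RNAi cytoplasmic replicate 2) to 29 fell. The ratio rose in 7 (without RNAi nuclear replicate 1) to 19 (without control nuclear replicate 1) and fell in 28 (without control nuclear replicate 3) to 57, with 31 without RNAi cytoplasmic replicate 2 or RNAi nuclear replicate 3 and 34 without RNAi nuclear replicate 1. The SLC25 ratio median ran from -0.17 to 0.04, the latter without RNAi cytoplasmic replicate 2. Leaving out the control cytoplasmic library leaves only the fractions in RNAi cells and the siRNAs in the nucleus to compare. Over all genes, 5283 were then higher in the nucleus and 4027 in the cytoplasm of RNAi cells, beside 5283 and 4025 with it. In the nucleus 403 rose and 393 fell, beside 400 and 391.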

Other observations

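Salmon also divided the reads of each member among its annotated transcripts, an estimate that rests on few distinguishing bases. Transcripts annotated as retaining an intron took 0.915% to 1.442% of SLC25 reads in the cytoplasmic samples and 3.646% to 4.128% in the nuclear samples. In the other SLC members they took 2.08% to 2.789% and 4.409% to 5.317%, and in tested protein-coding genes 3.491% to 3.78% and 4.553% to 6.115%. The ranges of the fractions did not overlap in any of the 3 sets. Of 171 members with at least 50 reads in every sample, 73 had more than 1% of reads on such transcripts. In 53 of these all 3 RNAi nuclear samples lay above both RNAi cytoplasmic samples, and in 0 they lay below. That is 72.6% above, near the share in protein-coding genes, where 3150 of 4500 lay above and 129 below. SLC25A39 is an example, with 1.12% and 1.31% in the RNAi cytoplasm, 15.4%, 13.3% and 14.8% in the RNAi nuclei, 2.78% in the control cytoplasm and 11.2%, 17.6% and 13.3% in the control nuclei.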
